A study of Arabidopsis thaliana with 15 samples.

Results

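Pollen tubes that had grown through a pistil (semi in vivo pollen tubes, SIV PT, 3 arrays) were compared with pollen that had been in liquid growth medium for 0.5 h (0.5 h PT, 4 arrays). These 7 arrays of the 15 in the series were chosen by their titles, so that pollen that had already taken up water stood on both sides. All pollen was wild type, from Arabidopsis thaliana accession Columbia (Col-0). For 0.5 h PT, pollen grains were incubated at 24 °C and spun down whole, so the sample held hydrated grains and grains that had just begun to germinate. For SIV PT, cut pistils of the male-sterile line ms1 in the Landsberg background were pollinated, the tubes left the style after 3 h and grew on over solid medium, and bundles of tubes were cut off at the style without the grains. Each SIV PT replicate pooled bundles from 800 pistils. The time on solid medium is given as 5 h in the sample characteristics and as 3 h in the treatment protocol. The other 8 arrays hold dry pollen (4 arrays) and pollen after 4 h in liquid medium (4 h PT, 4 arrays). RNA was hybridised to Affymetrix ATH1 arrays, on which a probe set of short oligonucleotides reports 1 transcript or a few similar ones.

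The pollen tube is a cell that grows at its tip and carries the sperm cells from the stigma through the style to an ovule. It is supplied largely by mRNA stored in the grain, it takes up sugars and ions from the tissue it crosses, it remodels a pectin-rich wall, and it secretes through the endoplasmic reticulum (ER) and Golgi. Receptor kinases, calcium channels and ROP GTPases at the tip set the rate and direction of growth.

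The arrays fell into their labelled groups. Over 22746 probe sets Pearson's r was 0.961 to 0.967 among SIV PT arrays, 0.945 to 0.957 among 0.5 h PT arrays and 0.816 to 0.844 between the groups, and no pair of arrays was identical. SIV PT and 0.5 h PT also differed in measures that no gene list uses. SIV PT was labelled from 2 µg of total RNA and 0.5 h PT from 5 µg. The ratio of the 3′ to the 5′ control probe set of GAPDH was 6.59 to 9.72 in SIV PT and 1.25 to 2.88 in 0.5 h PT, while the same ratio for ubiquitin overlapped (3.34 to 4.05 and 3.49 to 3.86). The 100 strongest probe sets held 23.3% to 24.98% of the summed signal in SIV PT and 28.9% to 32.7% in 0.5 h PT. These differences and the growth condition cannot be told apart in this design, and less RNA per cell cannot be told apart from fewer cells or nuclei contributing it.

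Changes are differences of log2(signal + 64) from limma across all probe sets, given with their standard error (SE). The lowest and highest array of a group are written in brackets, as in a change from (low, high) in 0.5 h PT to (low, high) in SIV PT. A probe set was called changed at B, the log odds of a change, above 3 and at least a 3-fold difference. SIV PT was higher in 879 probe sets (3.86% of those tested) and lower in 631 (2.77%), 6.64% in either direction. By adjusted p alone, under 0.05, 24.3% differed. The 3 SIV PT arrays all lay above the 4 of 0.5 h PT in 17.4% of probe sets and all below in 15.7%, and this held for all 1510 called ones. Rises and falls began from different levels. With 64 added to each signal, the lowest signals have room for a 3-fold rise but not for a 3-fold fall. The rising probe sets had a median signal of 165 in 0.5 h PT and 1989 in SIV PT, and 537 of them had a mean below 256 in 0.5 h PT. The falling ones had a median of 6718 in 0.5 h PT and 1176 in SIV PT, and 263 of them were among the 620 probe sets whose 0.5 h PT mean was at least 10000. At least a 16-fold change was reached by 193 rises and by 36 falls.

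**Figure D1:**
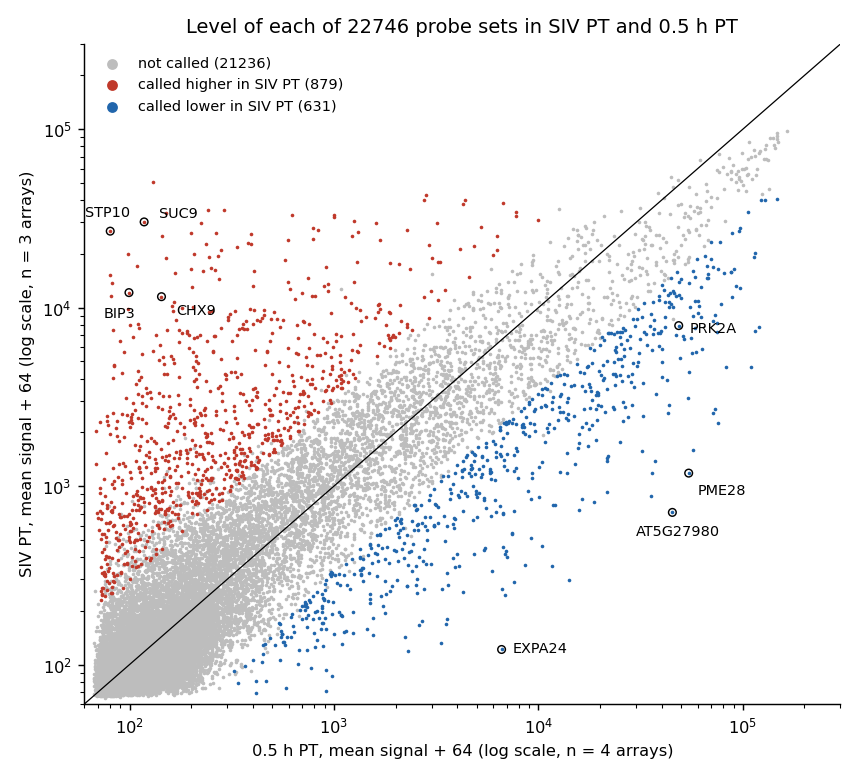
Mean signal plus 64 of each probe set in 0.5 h PT (horizontal, mean of 4 arrays) against SIV PT (vertical, mean of 3 arrays), both axes logarithmic, with the diagonal of equal levels. Of the 879 rises (red), 537 had a 0.5 h PT mean under 256 and lie at the left of the plot, and of the 631 falls (blue), 263 had one of at least 10000 and lie at its right.

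The largest rises were in sugar carriers, wall-acting enzymes, proteases and an ER chaperone with low signals in every 0.5 h PT array. STP10, a proton symporter for hexoses, had signals of 13.7, 33.9, 12.2 and 5.88 in 0.5 h PT replicates 1 to 4 and of 26417, 29292 and 24526 in SIV PT replicates 1 to 3. It rose by 8.39 (SE 0.53, adjusted p = 1.14e-08), the largest change of any probe set with 1 named gene. SUC9, a proton symporter for sucrose, read 103, 25.5, 5.56 and 80.8 in 0.5 h PT and 29249.6, 31023 and 30143 in SIV PT. It rose by 8.09 (SE 0.52). The SIV PT arrays of both carriers stood far above all 4 of 0.5 h PT. The wall-acting enzymes among the 12 largest rises were the pectate lyase family gene AT5G09280, which rose by 7.87 from (26.7, 136) to (30699, 36781), and AT4G26830, in glycosyl hydrolase family 17 with the β-1,3-glucanases, which rose by 7.31 from (30.2, 249.7) to (28605, 39642). The subtilisin-like protease genes AT1G66220 and AT4G21323 rose by 7.39 and 7.10. BIP3, an HSP70 of the ER lumen, had 6.61, 114, 17 and 3.91 in 0.5 h PT and 12774, 11863 and 11574 in SIV PT, and rose by 7.06 (SE 0.34, adjusted p = 1.79e-09). KLCR2, a kinesin light chain-related protein, rose by 7.47, LEA3, a late embryogenesis abundant protein, by 7.72, the VQ motif protein AT5G08480 by 7.13 and the NLI-interacting factor family gene AT1G29770 by 7.57. AT4G02160, described only as like other unknown proteins, rose by 6.65 and completed the 12.

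The largest falls were in transcripts that had been among the more abundant of hydrated pollen, with pectin methylesterases among them 3 times. AT5G27980, described as like an embryonic abundant protein, read 45168, 52010.0, 43679.6 and 39606 in 0.5 h PT and 679, 731 and 533 in SIV PT, and fell by 5.99 (SE 0.27, adjusted p = 1.06e-09). PME28, an enzyme that removes methyl groups from pectin, read 56016, 56991, 57730.3 and 46182 in 0.5 h PT and 998, 1232 and 1123 in SIV PT, and fell by 5.52 (SE 0.18, adjusted p = 7.58e-11). The lowest 0.5 h PT array stood more than 10 times above the highest SIV PT array for each. EXPA24, an expansin that loosens walls, fell by 5.81 (SE 0.52), from (5146, 9267) to 88.7, 6.02 and 77.5, so that its SIV PT signals were near background. PIRL6, a leucine-rich repeat protein related to Ras-binding proteins, changed by −4.89, AT2G19010, a GDSL-motif lipase, by −4.80, and AT5G28470, like a peptide transporter, by −4.69. The changes of PME23 and PME49 were −4.78 and −4.75. AT1G63060, AT3G28980, AT3G10460 and AT4G00350, to which no function is given here, changed by −5.56, −5.07, −5.04 and −4.92. The SIV PT arrays of AT4G00350 lay within 1087 to 1140.3, against 33852 to 38738 in 0.5 h PT.

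**Figure D2:**
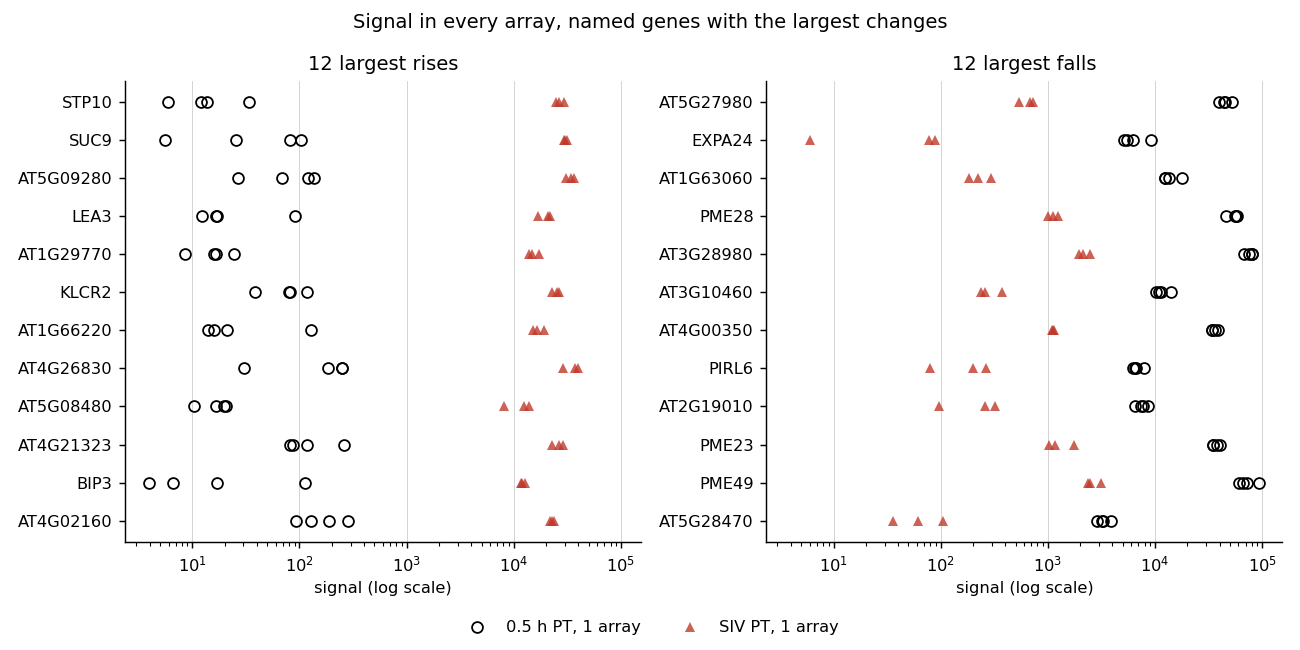
Signal on a logarithmic axis in each of the 4 arrays of 0.5 h PT (open circles) and the 3 of SIV PT (red triangles) for the 12 largest rises and the 12 largest falls with 1 named gene. In no gene do the groups overlap, and the spread between 0.5 h PT arrays is wide for the rises, whose signals there were low (5.88 to 33.9 for STP10).

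**Figure D3:**
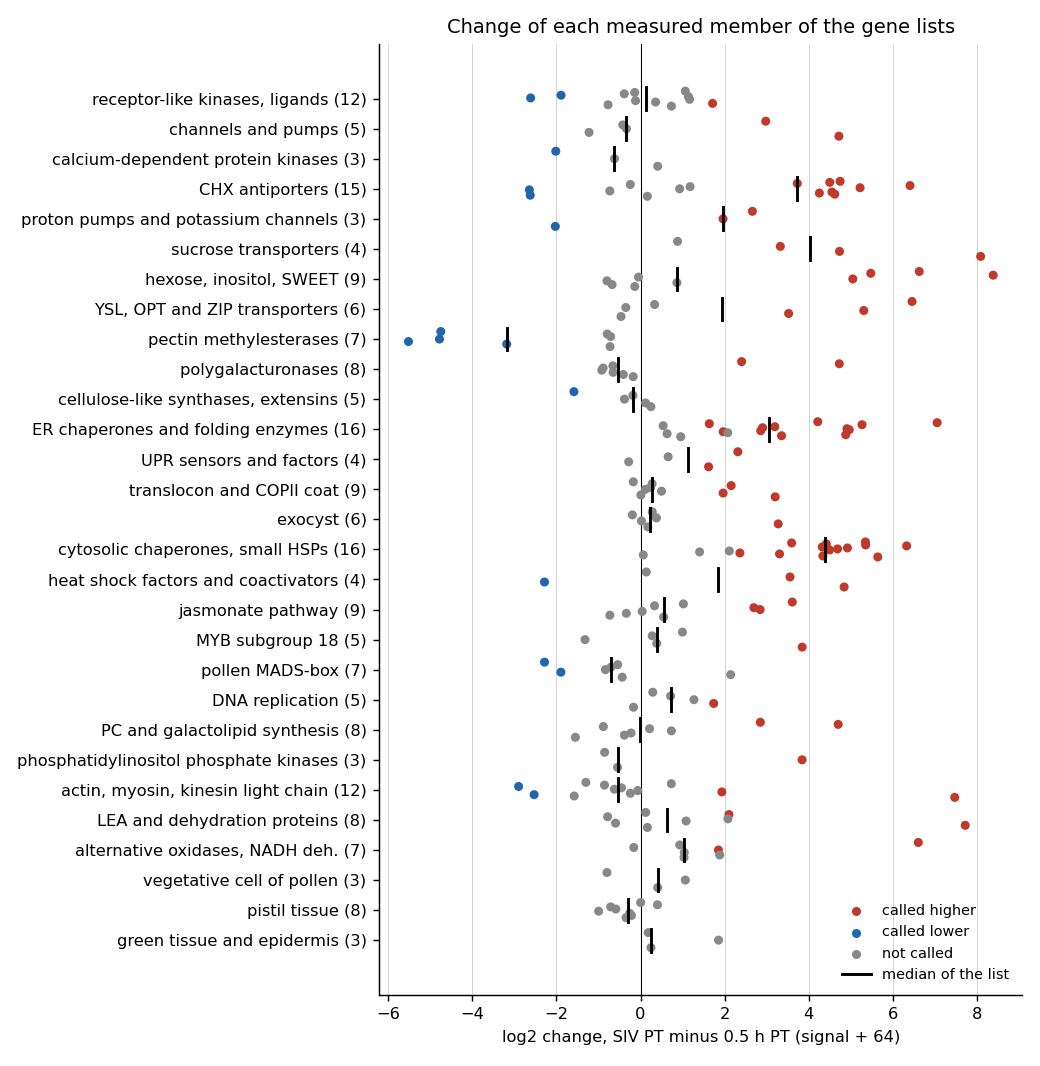
Change of each measured probe set (log2 of signal + 64, SIV PT minus 0.5 h PT) in each gene list with at least 3 probe sets, the number of probe sets in brackets, with calls in colour and the median of the list as a bar. Over all 22746 probe sets the median was −0.05.

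A listed gene counts as measured where a probe set was named for it, and genes without a named probe set may still be on the array. Over all probe sets 3.86% were called higher and 2.77% lower, and the list counts below stand beside these shares. Among carriers of sugars the rise was broad but not general. Of 4 measured sucrose transporters 3 rose and none fell (median change 4.03, against −0.05 over all probe sets). SUC8 read 10.7, 13.3, 14.3 and 19.8 in 0.5 h PT and 2576, 2599.6 and 1227 in SIV PT and rose by 4.73 (SE 0.30). SUC7 read 127.9, 32.9, 117 and 34.8 in 0.5 h PT against 1804, 2369 and 482 in SIV PT and rose by 3.32 (SE 0.45). SIV PT replicate 3 was the lowest for both, but still above every 0.5 h PT array. Without SIV PT replicate 1 or 2, after quantile normalization, or with the 7 arrays alone, SUC7 no longer passed. SUC7, SUC8 and SUC9 are similar in sequence, so their probe sets may share signal. SUC3 changed by 0.88, from (293, 328) to (603, 654), and did not pass. Of 9 measured carriers of hexoses, polyols and inositol and SWEET sugar exporters 4 rose and none fell (median 0.87). STP4, which lies next to STP10 on chromosome 3, read 162, 222, 172 and 245 in 0.5 h PT against 25066, 28836 and 23965 in SIV PT and rose by 6.63, STP8 rose by 5.48 and the inositol symporter INT4 rose by 5.05, from (817, 1109.7) to (29299.6, 36942). INT2 and the 4 SWEET genes measured did not pass. SWEET5, from (1108, 1547) to (631, 813), was the nearest to a fall at −0.80.

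The CHX family of cation/proton antiporters, many of which are made mainly in pollen, changed in both directions. Of 15 measured members 8 rose, 2 fell and 5 did not pass (median 3.73). CHX9 read 10.3, 119, 115 and 72.2 in 0.5 h PT and 10513, 12591 and 11242 in SIV PT and rose by 6.41 (SE 0.45, adjusted p = 3.56e-08). CHX12 read 172, 111, 82.4 and 79.3 in 0.5 h PT against 6135, 6714 and 6169 in SIV PT and rose by 5.22. CHX3 rose by 4.75, CHX26 by 4.62, CHX19 by 4.55, CHX4 by 4.50, CHX21 by 4.25 and CHX7 by 3.73. The 8 rising members had 0.5 h PT means from 33 to 533, and SIV PT means from 1969 to 13923. The 2 falling members were CHX14, at 3870.4, 3922, 3450.3 and 3749 in 0.5 h PT and 529, 521 and 587 in SIV PT, and CHX27, at 3989, 4630.2, 3276 and 3368 in 0.5 h PT against 468, 394 and 929 in SIV PT. Their changes were −2.64 and −2.62 (adjusted p = 9.63e-08 and 4.61e-06). CHX8, the member with the highest signal in 0.5 h PT at 22138 ± 3785 (SD, n = 4), was at 18494 ± 962 (SD, n = 3) in SIV PT and did not pass. In the reference order CHX3 lies next to CHX9 and CHX4 next to CHX12, and each of these pairs rose, whereas the neighbours CHX26 and CHX27 changed in opposite directions. All 3 measured genes on the list of proton pumps and potassium channels were called. The plasma membrane proton pumps AHA6 and AHA9 rose by 2.66 and 1.96, AHA6 from 1719.6, 1774, 1397 and 1493 to 11125, 11415 and 8807, and the inward potassium channel SPIK fell by 2.03, from 22863, 21393, 25018 and 25212 to 5999, 6231 and 5036. Among 6 carriers of metals and metal chelates 3 rose and none fell (median 1.93). YSL7, of a family that carries metal-nicotianamine complexes, read 17.1, 23.7, 13 and 23.1 in 0.5 h PT against 6109, 6279.6 and 9876 in SIV PT and rose by 6.46 (SE 0.31), and the zinc transporter family members ZIP11 and ZIP12 rose by 5.31 and 3.52.

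Of the listed pectin methylesterases of pollen, none rose. Of 7 measured 4 fell (median −3.18), and in all 7 the SIV PT arrays lay below those of 0.5 h PT, as they did in 15.7% of all probe sets. PME45 read 15688, 17305, 14333 and 15386 in 0.5 h PT and 1537, 1573 and 1907 in SIV PT and fell by 3.18 (SE 0.16, adjusted p = 2.11e-09). PME23 read 34841, 40292, 37822 and 35022 in 0.5 h PT against 1018, 1165 and 1758 in SIV PT, and PME49 read 71802, 93322, 61075 and 66893 in 0.5 h PT against 2354, 2451 and 3126 in SIV PT. The 4 falling members had group means of 1118 to 2644 in SIV PT, still well above background. The 3 members that did not pass, PME50, PME21 and PME13, were the strongest in 0.5 h PT, with means of 141402, 94869 and 87013, and changed by −0.79, −0.71 and −0.73. The list does not hold the whole family. Of pectinesterase family genes outside it, singled out after their values were seen, AT5G49180 rose by 6.06, from (147, 255.9) to (12358, 19079), and AT4G15980 changed by −4.27, from (15137, 17665) to (695, 829). Of 8 polygalacturonases, which cut pectin, 2 rose and none fell (median −0.53), beside 3.86% and 2.77% of all probe sets. AT4G13760 read 72.2, 69.4, 6.79 and 12.4 in 0.5 h PT against 3218, 4007 and 1310.4 in SIV PT and rose by 4.73, and AT2G40310 read 101, 122, 18 and 50.5 in 0.5 h PT against 803, 800.2 and 374 in SIV PT and rose by 2.40 (adjusted p = 1.29e-04). The call of AT2G40310 was lost when any of 10 arrays was left out in turn, among them SIV PT replicates 1 and 2. It was also lost after quantile normalization and with the 7 arrays alone. Of 5 genes for cellulose-like synthases and extensins only CSLD1 was called. It fell by 1.59, from 45316, 45727, 48364 and 50277 to 15264, 16091 and 15902, at the edge of the 3-fold limit. It did not pass after quantile normalization, or without SIV PT replicate 1 or 0.5 h PT replicate 3 or 4.

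Transcripts of the ER folding machinery were higher in SIV PT, and none of them had been called between dry pollen and 4 h PT. Of 16 measured ER chaperones and folding enzymes 12 rose and none fell (median 3.05), and in 15 all SIV PT arrays lay above those of 0.5 h PT, as they did in 17.4% of all probe sets. CNX1, the lectin chaperone calnexin, read 219, 134, 164 and 242 in 0.5 h PT and 9785, 9243 and 9666 in SIV PT and rose by 5.27 (SE 0.21, adjusted p = 5.50e-10). The protein disulfide isomerase PDIL1-1 read 311, 187, 270.3 and 218 in 0.5 h PT against 9619, 8884 and 8993 in SIV PT and rose by 4.91 (SE 0.19), and PDIL1-2 rose by 4.96. The BIP1 probe set rose by 4.22, from (1359.8, 1759) to (27456, 33059), but it is likely to read the near-identical BIP2 as well. The 4 members that did not pass, CNX2, ERDJ3B, ERO2 and PDIL2-3, changed by 0.54, 0.63, 0.96 and 2.07. In 4 h PT, CNX1 was at 81.7 to 188 and PDIL1-1 at 214 to 348. Of 4 measured sensors and factors of the unfolded protein response, which controls such genes, 2 rose. The transcription factor BZIP60 read 1901, 1815, 1604 and 1900.0 in 0.5 h PT against 9855, 8893 and 8919 in SIV PT and rose by 2.31 (SE 0.17). The sensor IRE1B read 673, 463, 545 and 494 in 0.5 h PT against 2109, 2116 and 1275 in SIV PT and rose by 1.62. Its call was lost without SIV PT replicate 1 or 2 and without 0.5 h PT replicate 2 or 4. It was also lost after quantile normalization and with the 7 arrays alone. Of 9 probe sets for the translocon, ER-associated degradation and the COPII coat, which forms vesicles at the ER, 3 rose and none fell (median 0.27). SEC31A, a subunit of that coat, rose by 2.15, from (114, 185) to (715, 1044), SAR1B, the GTPase that starts its assembly, rose by 1.96, from (849, 1267) to (3618, 4576), and 1 probe set of DER1 rose by 3.20. The other DER1 probe set changed by 0.01, so the probe sets of that gene disagree. Of 6 subunits of the exocyst, which tethers secretory vesicles at the plasma membrane, only SEC15B rose, by 3.27, from (70.4, 98.7) to (1266, 1523). Over all probe sets 3.86% rose.

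Cytosolic chaperones and small heat shock proteins rose as well, and 10 of the 16 had also been called higher in 4 h PT than in dry pollen. Of 16 measured members 13 rose and none fell (median 4.38). HSP90-1 read 243, 219, 154 and 101 in 0.5 h PT and 21328, 16728 and 19144 in SIV PT and rose by 6.33 (SE 0.50, adjusted p = 1.24e-07). BAG6, a co-chaperone, rose by 5.64, HSP70B by 5.35 and HSP101, which resolves aggregates, by 5.35. In 4 h PT the signals ranged over 557 to 5142 for HSP90-1 and 227 to 1546 for HSP101. HSP22, HSP18.2 and HSP15.7 did not pass, with changes of 1.40, 2.11 and 0.06, and HSP22 had a lower mean in SIV PT (154) than in 4 h PT (375). Of 4 heat shock factors and coactivators, which drive such genes, MBF1C rose by 4.84, from (213, 253) to (6841, 9832), and HSFA2 by 3.56, while HSFA5 fell by 2.29, from (1867, 2321) to (327, 419). The SIV PT arrays of HSFA2 spread over 498 to 1654.

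**Figure D4:**
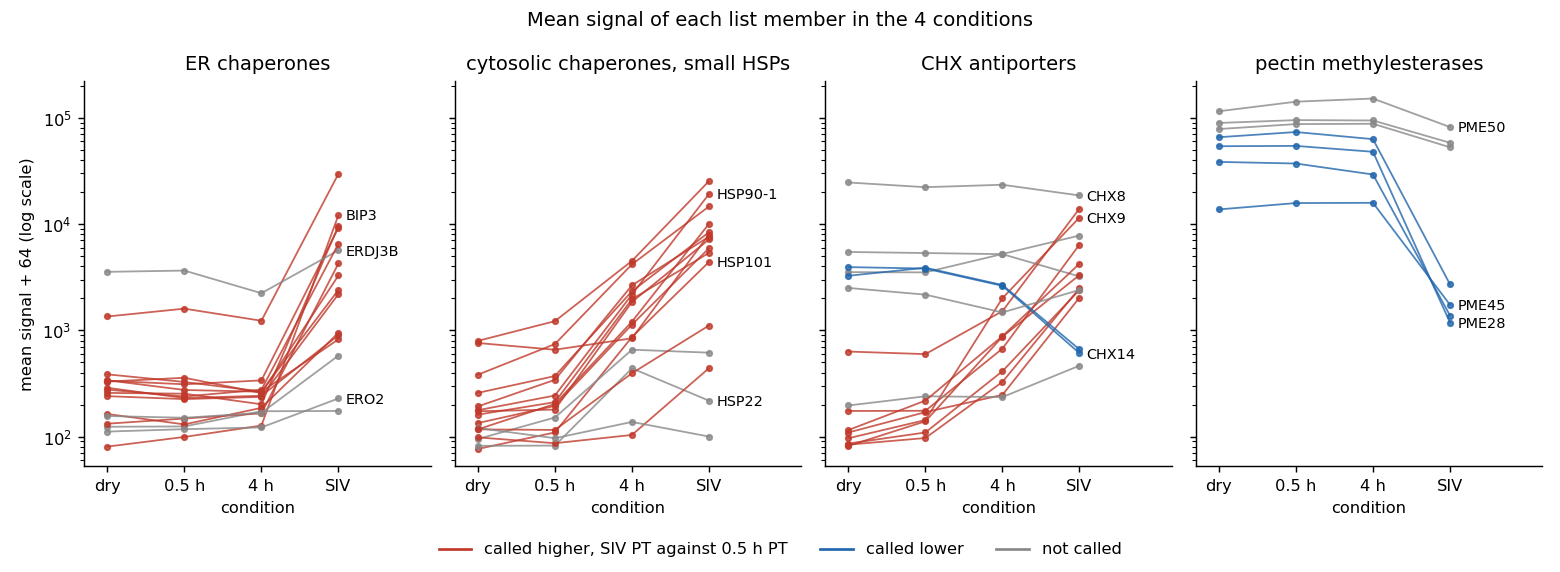
Mean signal plus 64 on a logarithmic axis of each member of 4 gene lists, with dry pollen and the 0.5 h and 4 h PT as means of 4 arrays and SIV PT of 3, coloured by the call of SIV PT against 0.5 h PT; lines join the 4 conditions of 1 probe set and are no time course. All 16 ER chaperones change by less than 2-fold from dry pollen to 4 h PT, 10 of 16 heat shock proteins and 6 of 15 CHX antiporters are called higher there, and 4 of the 7 pectin methylesterases are called lower in SIV PT.

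Receptors and signalling proteins of the tube tip mostly did not pass, with large falls in a few. Of 12 measured receptor-like kinases, ligands and related proteins 1 rose, 2 fell and 9 did not pass (median 0.12). Over all probe sets 3.86% rose and 2.77% fell. PRK2A, a pollen receptor kinase, read 48889, 47394, 51628 and 45956 in 0.5 h PT and 7395, 7988 and 8202 in SIV PT and fell by 2.61 (SE 0.15, adjusted p = 4.80e-09), and BUPS2, a receptor of RALF peptides, fell by 1.89, from (15491, 18643) to (4341, 4842). ANX1, another RALF receptor, went from (9579, 14393) to (22218, 24094), a change of 1.07 that did not reach 3-fold, PRK1 and PRK6 changed by 1.14 and 1.17, and BUPS1 by −0.39. MIK2, a receptor kinase, rose by 1.71 but stayed at 164 to 240.0 in SIV PT. ROPGEF13, which activates ROP GTPases, read 378, 315, 592 and 449 in 0.5 h PT against 6977, 7419.6 and 7105 in SIV PT and rose by 3.89 (SE 0.30). ROPGEF14, the other gene with a named probe set on a list of 12, changed by 0.37. Of 5 cation and anion channels MSL7, related to mechanosensitive channels, rose by 4.72, and the cyclic nucleotide-gated channel CNGC7 rose by 2.98, from 521, 529, 538 and 548 to 4487, 4784 and 4681, whereas CNGC18 changed by −0.42. Of 3 calcium-dependent protein kinases CPK14 fell by 2.02, from (25331, 31199) to (5849, 7603), and CPK20 and CPK34 changed by −0.62 and 0.41. After quantile normalization 4 of the 12 receptor-related probe sets were called higher in place of 1 and CPK14 no longer passed.

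Genes of the cytoskeleton and of membrane lipids changed in both directions. Of 12 measured actins, actin-binding proteins, myosins and related proteins 2 rose and 2 fell (median −0.54), beside 3.86% and 2.77% of all probe sets. Besides KLCR2, the myosin XI-E rose by 1.93, from 819.5, 969, 629 and 931 to 3326, 2921 and 3832. PRF5, a profilin, fell by 2.90, from 32016, 41849, 43882 and 43286 to 3950.4, 3943 and 9479.7, with SIV PT replicate 3 well above the other SIV PT arrays, and PLIM2A, which bundles actin, changed by −2.53 and was called lower. The 3 actins measured changed by −1.30 (ACT1), −0.86 (ACT12) and 0.73 (ACT11), and none passed. NMT1, the phosphoethanolamine methyltransferase that makes phosphocholine, rose in both of its probe sets, by 4.70 and 2.85, while NMT2 changed by −0.88 and MGD2, which makes galactolipid, by −1.55, just short of 3-fold. PIP5K10, of a family that makes the tip lipid phosphatidylinositol bisphosphate, rose by 3.84, from (30.3, 274) to (1958, 2544), while PIP5K11 and PIP5K5 changed by −0.55 and −0.85.

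Among regulators and stress-related genes a few members moved. Their counts stand beside 3.86% of all probe sets called higher and 2.77% called lower. MYB120, a MYB factor of the tube nucleus, read 323, 476, 237 and 349 in 0.5 h PT against 6085, 6468 and 4712 in SIV PT and rose by 3.84, and its relative MYB101 changed by −1.32, from a 0.5 h PT mean of 24988 to 10032, without reaching 3-fold. Of 7 MADS-box factors of pollen AGL18 and AGL66 fell, with changes of −2.28 and −1.89, and none rose, with AGL94 at 2.14 not passing. Of 9 jasmonate pathway genes 3 rose and none fell (median 0.55): the repressors JAZ1, by 3.61, and JAZ12, by 2.70, and the factor MYC2, by 2.84. JAZ1 read 8.63, 79.1, 16.6 and 7.88 in 0.5 h PT and 1037, 1044 and 954 in SIV PT, while COI1, the receptor, had means of 109 and 37.5. JAZ12 did not pass after quantile normalization, with the 7 arrays alone or without SIV PT replicate 2 or 3. AOX1A, the mitochondrial alternative oxidase, read 84.9, 55.3, 78.9 and 195 in 0.5 h PT against 14718, 15665 and 16308 in SIV PT and rose by 6.61 (SE 0.46). NDB2, an external NADH dehydrogenase, rose by 1.85, a call lost after quantile normalization or with the 7 arrays alone. Of 8 proteins of dehydration the rises were LEA3 and TIL, a lipocalin. TIL went from 664, 353, 394 and 245 to 1815, 1939 and 1921, and its call was lost without any 1 of the 3 SIV PT replicates or 0.5 h PT replicate 2. It was also lost after quantile normalization and with the 7 arrays alone. ORC2, a subunit of the origin recognition complex, rose by 1.74, the only call among 5 genes of DNA replication. That call was lost after quantile normalization, with the 7 arrays alone or without 0.5 h PT replicate 2.

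None of the 8 measured genes on the list of pistil tissue was called higher in SIV PT. The list holds 21 genes, and those without a named probe set were not looked at. Of the 8 measured 0 were called in either direction, their median change was −0.30, and their summed signal was 289 to 804 in SIV PT and 591 to 1034 in 0.5 h PT. The defining genes of style and ovule on this list, such as INO and the NGA genes, had SIV PT means of at most 134. NGA1, the one with the largest change, read 122, 154, 17.6 and 65.4 in 0.5 h PT and 6.12, 11.4 and 6.87 in SIV PT. MGH3, a histone of sperm cells, was the only 1 of 12 listed sperm markers with a named probe set. It went from (7935, 10286) to (5988, 8157), a change of −0.38 (adjusted p = 0.114). Of 10 listed markers of the vegetative cell, which forms the tube, 3 had a named probe set. These were ANX1, CPK34 and SWEET5, all on the lists above. Their summed signal lay between 23288 and 29738 in the 0.5 h PT arrays and between 39647 and 47294 in those of SIV PT. The 3 genes of green tissue and epidermis summed to between 103 and 262 in 0.5 h PT and between 397 and 457 in SIV PT, with the largest gain in LTP1, a lipid transfer protein of the epidermis. LTP1 read 25.8, 22.6, 13.5 and 7.5 in 0.5 h PT and 193, 243 and 255.7 in SIV PT, and did not pass (1.86, adjusted p = 8.91e-04). LTP3, its relative, was called, with a rise of 1.84, from (21, 61.8) to (268, 387). The part of such cells in the other results was not tested.

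Dry pollen and 4 h PT share no array with the comparison above, so their difference, which spans hydration and growth in medium, could be set beside it. Both differences come from 1 fit with the same estimate of spread for each probe set, so their calls are not fully independent. In 4 h PT 163 probe sets were called higher than in dry pollen (0.717% of those tested) and 11 lower (0.0484%). Of the 163 rises 145 were also called higher in SIV PT against 0.5 h PT, which is 89.0% of them and 16.5% of the 879. Over all probe sets 3.86% were called higher in SIV PT. The median change of the 163 in SIV PT against 0.5 h PT was 4.35, against −0.05 over all probe sets. Of the 11 falls none was called lower in SIV PT, and LTP3 was called higher. These 11 had already dropped to means of 9.91 to 119 in 0.5 h PT. With the offset of 64 such signals leave no room for a 3-fold fall. The lack of shared falls was therefore fixed in advance and says nothing on agreement. Seen from the other side, the 879 rises had a median change of 0.58 between dry pollen and 4 h PT, and 581 of them (66.1%) changed there by less than 2-fold, as did 97.6% of all probe sets. The 631 falls had a median change of −0.31, and 626 of them (99.2%) changed by less than 2-fold. By the methods of the study, part of the grains in 4 h PT did not germinate and were collected with the tubes. A fall confined to tubes would read smaller in such a mixture, and the size of this effect was not tested. For the rises the median signal of dry pollen was 156, close to the 165 of 0.5 h PT, while 4 h PT stood at 374 and SIV PT at 1989. For the falls it was 6771 in dry pollen, 6718 after 0.5 h, 5129 after 4 h and 1176 in SIV PT.

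**Figure D5:**
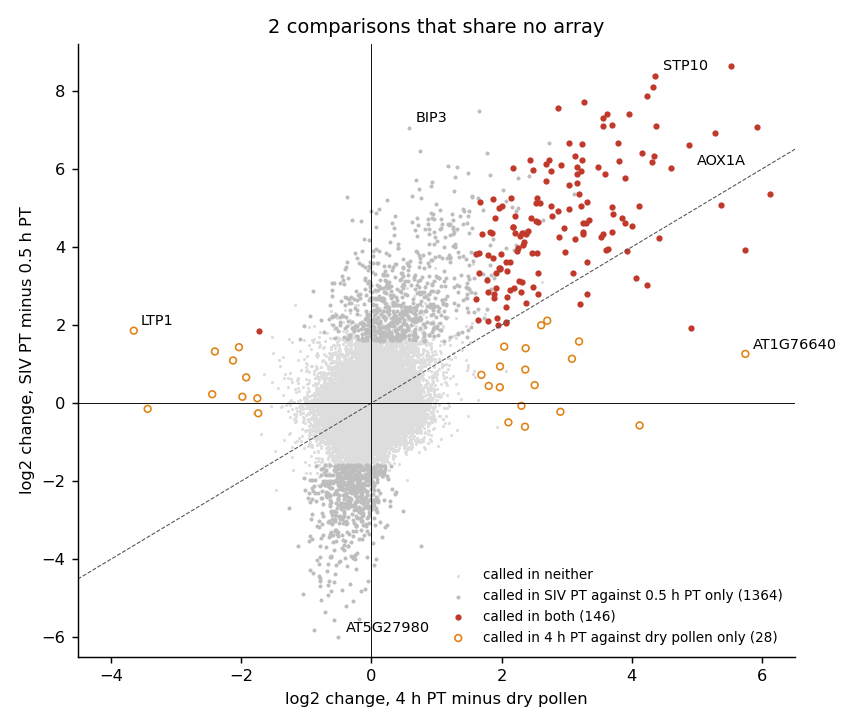
Change from dry pollen to 4 h PT (horizontal) against change from 0.5 h PT to SIV PT (vertical), both as log2 of signal + 64, for every probe set, with a dashed line of equal change. Of the 163 rises in 4 h PT, 145 are called higher in SIV PT too and most of these lie above the line, while the falls in SIV PT spread down the vertical axis with little change in 4 h PT; the red point at the left is LTP3, called in opposite directions.

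The difference of the 2 comparisons was tested in the same model. It passed an adjusted p under 0.05 in 1842 probe sets with the larger rise in SIV PT (8.1%) and in 1439 with the opposite sign (6.33%). Of the 145 rises called in both, 88 rose more in the SIV PT comparison by this test and 2 rose less. For INT4 the changes were 5.05 in SIV PT against 0.5 h PT and 4.11 in 4 h PT against dry pollen, a difference of 0.94 that did not pass (adjusted p = 0.266), and for MBF1C they were 4.84 and 3.71 (adjusted p = 0.309). Among the ER chaperones 14 of 16 had the larger rise in SIV PT and none was called in 4 h PT, where their median change was 0.01. Among the cytosolic chaperones 10 of 16 were called in 4 h PT, with a median of 2.91, and the difference passed in favour of SIV PT in 6 and of 4 h PT in 1. For the pectin methylesterases it passed in all 7, each lower in SIV PT, and their median from dry pollen to 4 h PT was 0.07. The limit that ungerminated grains set on falls in 4 h PT applies here too. The 5 named genes with the largest difference towards SIV PT were BIP3 (6.48), KLCR2 (5.83), YSL7 (5.71), CNX1 (5.64) and LTP1 (5.50). Most of the difference of LTP1 lay in its change of −3.65 from dry pollen to 4 h PT, from (445, 1892) to (6.96, 20.7). The 5 in the other direction were AT5G27980 (−5.48), PME28 (−5.33), AT1G63060 (−4.99), EXPA24 (−4.93) and AT3G28980 (−4.79), and all 5 stood among the 12 largest falls. Of the 163 rises in 4 h PT 18 were not called in SIV PT. AT1G76640, described as related to calmodulin, rose by 5.74 from dry pollen to 4 h PT and changed by 1.26 in SIV PT against 0.5 h PT, from (2926, 3674) to (6209, 9867). Its mean was 208 in dry pollen and already 3191 in 0.5 h PT, and it rose by 2.15 from 0.5 h PT to 4 h PT. Changes in the first 0.5 h count only in the 4 h PT comparison, so a missing call need not mean a missing response. AT1G76640 was singled out after its values were seen.

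The falls were concentrated in the transcripts that dry pollen holds most of. Probe sets were put in classes by their mean in dry pollen, whose arrays take no part in the contrast. Of 429 with a dry pollen mean of at least 16384, 205 (47.8%) were called lower and none higher, with a median change of −1.55. Of 688 from 4096 to 16384, 189 (27.5%) were called lower and 9 higher. Of 2506 from 256 to 1024, 92 (3.67%) were called lower and 232 (9.26%) higher, and of 9438 under 64 none was called lower and 240 (2.54%) higher. With the offset of 64, probe sets that were also under 64 in 0.5 h PT could not fall 3-fold. The lack of lower calls in that class is therefore no support for the pattern. The 100 strongest had 39 called lower and none higher, with a median of −1.01. This part of the result depends on how arrays are scaled to each other. After quantile normalization 20 of the 100 were called lower and their median was −0.11, while the 12 largest falls and 4 falling pectin methylesterases named above kept their calls.

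A probe set was counted as expressed where its mean log2 signal reached 8, a signal of 256. By this limit 4971 were expressed in 0.5 h PT and 5974 in SIV PT, 4411 of them in both. The 1563 expressed only in SIV PT went from a median of 137 to 464, and 525 of them were called higher. The 560 expressed only in 0.5 h PT went from 375 to 162, and 142 of them were called lower. Array by array, 6005 to 6048 probe sets reached the limit in SIV PT and 5016 to 5466 in 0.5 h PT, which do not overlap (exact permutation test, two-sided p = 0.0571, the smallest that 3 against 4 arrays allow). After quantile normalization the counts were 5411 and 5128.

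A stretch of chromosome 3 held several falling genes and was singled out after its values were seen. Between AT3G28770 and AT3G28980 the reference lists 32 protein-coding genes, of which 12 had a probe set with 1 named gene. Of these 6 were called lower and none higher, while 2.77% of all probe sets were called lower. The 6 had dry pollen means of 3106 to 110045, levels at which falls were common. Of all probe sets with dry pollen means from 4096 to 16384, 27.5% were called lower, and of those of at least 16384, 47.8%. AT3G28830 read 118942, 124341, 105265 and 111022 in 0.5 h PT and 6851, 8269 and 7009 in SIV PT and fell by 3.95. AT3G28770, AT3G28780, AT3G28790, AT3G28840 and AT3G28980 changed by −4.37, −4.43, −2.66, −3.76 and −5.07. Among the other 6, AT3G28850 had a high signal, at a mean of 8074 in 0.5 h PT, and changed by −0.22, and the remaining 5 had means under 100 in both groups. Genes in such a stretch may be similar in sequence, and their probe sets may share signal.

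Among the called probe sets the SIV PT arrays spread less than those of 0.5 h PT for the rises and more for the falls. Calls favour probe sets of low spread, so these values do not describe all probe sets. The median SD over the 3 arrays was 0.20 on the log2 scale for the rises and 0.22 for the falls, against 0.30 and 0.14 over the 4 arrays of 0.5 h PT. SIV PT replicate 3 was the one nearest to 0.5 h PT in 468 of the 879 rises and in 356 of the 631 falls, replicate 2 in 236 and 168, and replicate 1 in 175 and 107.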

How the data were processed

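The deposited intensity values are 1 linear signal per probe set and array, which per the labels the authors computed with the Affymetrix software GCOS (version not given in the sources used here). The 2% trimmed mean of each array was 500.1, so each array had been scaled to a common mean. The methods of the study used RMA on probe-level data, which are not used here, and the authors' lists of changed genes were not used either. The 64 AFFX control probe sets were left out, which left 22746.

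Signals were transformed as log2(signal + 64), an offset that understates fold changes of low signals. Linear models were fitted with limma 3.58.1 in R 4.3.3 over all 15 arrays, with 1 mean per condition (11 residual degrees of freedom, prior 3.97) and Benjamini-Hochberg adjusted p-values over all probe sets. The titles call the arrays biological replicates. The labels do not say that these came from separate plants, so p-values measure the spread between these arrays. A call required B above 3 and at least a 3-fold change. The fit was tested on simulated arrays of 22746 probe sets for SIV PT against 0.5 h PT. It recovered 39 and 43 of 50 simulated 4-fold rises and falls, 45 and 47 of 50 at 8-fold, and called 0 of 22546 unchanged probe sets. The changes were placed only in probe sets above a set mean level, so the lowest signals were not covered. The simulated noise was normal, with no difference between groups in scaling or RNA quality. These values therefore do not measure recovery or false calls in the real arrays.

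The members and the 31 gene lists (400 genes, 208 with a named probe set) were chosen with earlier results of these data known. A probe set was named where it matched 1 gene (15332, of these 1962 only through annotation columns of the study's supplementary tables, which lean towards genes that the study listed; 507 matched several, for 143 the sources differed and 6764 had no name). The text names the 12 largest rises and falls, up to 4 called members of each list or its most changed member, and the 5 largest differences between the comparisons in each direction; other list members and single genes are named for contrast. Alternatives were offsets of 32 and 128, quantile normalization, median centring, a filter on low signals, the 7 arrays alone, a variance trend, a call by adjusted p, a replicate block and leaving out each array. Gene families by description and promoter motifs were planned and not run, because the reference used here holds neither descriptions nor promoters. Precision is limited by the number of arrays.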

Additional observations from a re-analysis of the deposited data

Results flagged for a closer look

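In 8 of the 106 groups of 4 arrays tested among the named genes, 1 array stood apart from the other 3 by more than the 95% limit of Dixon's test, which chance exceeds in about 1 group in 20. All 8 were groups of 0.5 h PT arrays. Dry pollen and 4 h PT were tested for 10 of the 86 probe sets and 0.5 h PT for all of them. For each the gap is given as a share of the range of the group on the log2(signal + 64) scale. LEA3 had 90.9, 12.3, 16.6 and 17 in replicates 1 to 4 (gap 0.915, replicate 1). AT1G66220 had 16, 21.3, 13.9 and 127.9 (0.9, replicate 4). CHX26 had 14.7, 99.3, 93.6 and 93.7 (0.951, replicate 1). HSFA2 had 7.27, 13.4, 7.81 and 52.5 (0.831, replicate 4) and JAZ1 had 8.63, 79.1, 16.6 and 7.88 (0.834, replicate 2). In these 5 genes all signals were low, and every SIV PT array lay far above the separate one. MBF1C had 248, 213, 246 and 253 (0.834, replicate 2). The other 2 were falls from high signals, PME28 with 56016, 56991, 57730.3 and 46182 (0.865, replicate 4) and PRF5 with 32016, 41849, 43882 and 43286 (0.849, replicate 1). The calls of these 8 genes held when any 1 array was left out.

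The change from 0.5 h PT to SIV PT differed from that of dry pollen to 4 h PT, by the test of the difference, most in the following named genes. BIP3 differed by 6.482 log2 units, KLCR2 by 5.827, YSL7 by 5.705, CNX1 by 5.644 and LTP1 by 5.504. In the other direction AT5G27980 differed by −5.485, PME28 by −5.332, AT1G63060 by −4.987, EXPA24 by −4.93 and AT3G28980 by −4.788.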

How the results depend on the processing

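The number of probe sets called higher in SIV PT ranged from 710 after quantile normalization to 1191 with a call by adjusted p and 3-fold, and the number called lower from 549 after median centring to 695 after quantile normalization. With the 7 arrays alone they were 734 and 559. With a replicate block they were 851 and 626. The replicate numbers do not pair the arrays (correlations of deviations from −0.01 to 0.01), so the block shares only numbers. Leaving out each array in turn gave 730 to 898 higher and 579 to 630 lower, 138 to 180 higher and 8 to 13 lower in 4 h PT against dry pollen, and 120 to 163 rises (and 0 falls) called in both comparisons. The count of 11 lower in 4 h PT became 4 with the larger offset. The 100 strongest probe sets of dry pollen had 35 to 40 called lower and medians of −1.07 to −0.97 when 1 array was left out, but 20 and −0.11 after quantile normalization. For the 200 strongest the values were 88 and −1.42.

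No named gene that was called in the main fit changed direction. Named genes not called there were not checked for this. Of 772 values of named genes under the other alternatives 747 kept their side of the threshold, 22 lost the call and 3 gained it, and of 1290 with 1 array left out 1263 kept it. The genes that lost it were AT2G40310, CSLD1, IRE1B, TIL, JAZ12, SUC7, ORC2, NDB2, CPK14 and MIK2, and those that gained it were LTP1 and ANX1. Of 278 list medians under the other alternatives 39 moved by more than their spread between arrays, and 7 of 465 did with 1 array left out. Of 556 counts of called list members 29 moved past the limit set for counts, and 27 of 930 did with 1 array left out. The median of the receptor list, for example, was 0.12 and became 0.85 after quantile normalization. The cause of these shifts was not tested.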
